A study of Mus musculus with 36 samples.

Results

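The genes described here are 8 genes of the insulin-like growth factor (IGF) system of the mouse: the ligand *Igf1*, the receptor *Igf1r* and the genes of 6 IGF binding proteins, *Igfbp2* to *Igfbp7*. They were chosen by name from the 55536 genes of the count tables. *Igf1* encodes a secreted growth factor that resembles insulin, and *Igf1r* encodes the receptor tyrosine kinase through which it acts. The binding proteins are secreted carriers that hold IGFs outside the cell, extend their lifetime and control how much of them reaches the receptor, and proteases that cut the carriers release the ligand again. In fat precursor cells, IGF and insulin signalling both drive adipogenesis. The differentiation medium of these cells contained insulin, and whether it also acted through the IGF receptor was not tested.

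The RNA was sequenced from cell cultures of immortalised mouse brown pre-adipocytes. All cells carried an *Rxra*-/- background made with CRISPR/Cas9, and each of 2 knockout clones, 48 and 66, received a retrovirus that re-expressed either wild-type *Rxra* (RxraWT) or *Rxra* with serine 22 replaced by alanine (RxraSA), so no group lacks an *Rxra* transgene. RXRα is a nuclear receptor that pairs with other nuclear receptors, among them the adipocyte regulator PPARγ, and the alanine prevents phosphorylation at this serine. Each of the 4 cell lines was sampled at confluence (day 0), in medium that already held insulin and triiodothyronine, and at days 2 and 6 of differentiation, in 3 replicates, giving 36 libraries. Dexamethasone, isobutylmethylxanthine and indomethacin were also present from day 0 to day 2 and not afterwards. The comparison of days 0 and 2 thus spans these agents as well as time, and that of days 2 and 6 spans their removal as well as time.

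The replicates are called technical in the deposited design text and independent in the study's methods, so p-values here measure only the spread between these libraries. Each genotype is represented by 2 clonal lines. All libraries of clone 48 were sequenced in library pool 1 and all of clone 66 in pool 2, so clone and pool cannot be told apart. Total counts ran from 11351078 to 24349263 per library, with a median of 18338726. *Rxra* was found in every library, at 92.6 to 712 CPM (counts per 1000000, scaled by the trimmed mean of M values, TMM), with medians at days 0, 2 and 6 of 166, 570.0 and 236 in RxraWT and 170.2, 555 and 244 in RxraSA cells. These counts do not tell the alleles apart. All 8 adipocyte markers on a fixed list rose by day 2 and by day 6, the summed TPM of these markers (transcripts per 1000000, counts divided by gene length) going from a median of 289 to 4268 and 8328, and all 5 tested pre-adipocyte markers fell. The brown fat gene *Ucp1* had at most 5 counts in any library. The summed TPM of all 8 brown adipocyte markers had medians of 11.5, 25.6 and 73.5 on days 0, 2 and 6, and of the 5 tested, 4 rose by day 2 and 5 by day 6, among them *Cox7a1*, a mitochondrial subunit gene, with a mean of 0.317, 0.301 and 14.1 CPM. The macrophage markers *Ptprc*, *Adgre1* and *Itgam* had at most 1 count. Of 4 smooth muscle markers none was at 0 throughout, and their summed TPM ran from 175 to 577 at day 0, 1.97 to 4.85 at day 2 and 9.48 to 18.1 at day 6. That of 5 macrophage markers, nearly all of it *Cd68*, ran from 10.8 to 27.0, 4.56 to 11.1 and 9.48 to 21.2. The summed TPM of 6 genes listed as signs of RNA quality, among them *Lars2*, ran from 575 to 78243 before differentiation (median 2561). Later it ran from 466 to 12762 (median 2305) on day 2 and from 546 to 23830 (median 6024) on day 6. The highest was the RxraSA library of clone 48, replicate 1, at day 0, which also had the lowest total count. Between days 0 and 2, 3 of the 6 fell and 0 rose, and 0 were called between days 0 and 6 or between genotypes. The part of such markers in the results was not tested, but leaving out that library changed the call of a member in 1 case, given with *Igfbp6*. In bulk RNA, a change in the share of cells of one type and a change in the RNA of each cell cannot be told apart.

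Of the 8 genes, 5 passed the filter on low counts and were among the 16723 genes tested: *Igf1*, *Igf1r*, *Igfbp4*, *Igfbp6* and *Igfbp7*. The other 3, *Igfbp2*, *Igfbp3* and *Igfbp5*, were at or near 0 everywhere. *Igf1* (ENSMUSG00000020053.18) lies at chr10:87858265-87937042 on the plus strand of GRCm38, and *Igf1r* (ENSMUSG00000005533.10) at chr7:67952827-68233668 on the plus strand. *Igfbp4* (ENSMUSG00000017493.12) lies at chr11:99041244-99054392 on the plus strand, *Igfbp6* (ENSMUSG00000023046.6) at chr15:102144362-102149511 on the plus strand and *Igfbp7* (ENSMUSG00000036256.13) at chr5:77349240-77408041 on the minus strand. *Igfbp2* (ENSMUSG00000039323.18, chr1:72824503-72852474, plus strand) and *Igfbp5* (ENSMUSG00000026185.8, chr1:72857932-72874884, minus strand) are neighbours whose facing ends are 5457 bases apart. *Igfbp3* (ENSMUSG00000020427.11, chr11:7206086-7213923, minus strand) has another carrier gene, *Igfbp1*, 3539 bases away. *Igfbp7* shares 85 of 1209 exon bases with *Polr2b* on the opposite strand, and strand was not used in counting, so reads from those bases cannot be assigned to 1 of the genes.

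The 3 carriers that were expressed went in different directions during differentiation, and the sequences in front of their start sites are shown for comparison of their composition and motifs. Each is the 250 bases before the RefSeq gene start on GRCm38.p6, read 5′ to 3′ along the gene's strand, with matches to the searched motifs in capitals:
Igfbp4: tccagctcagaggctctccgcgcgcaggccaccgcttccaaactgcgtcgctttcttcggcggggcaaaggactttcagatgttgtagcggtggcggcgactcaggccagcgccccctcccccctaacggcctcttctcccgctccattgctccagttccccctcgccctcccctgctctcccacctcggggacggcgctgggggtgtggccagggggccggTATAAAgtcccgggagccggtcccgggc
Igfbp6: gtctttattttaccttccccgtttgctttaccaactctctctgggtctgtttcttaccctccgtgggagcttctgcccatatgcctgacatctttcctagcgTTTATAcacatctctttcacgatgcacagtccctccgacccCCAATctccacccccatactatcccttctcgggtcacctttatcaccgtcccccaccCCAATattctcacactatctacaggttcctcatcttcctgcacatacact
Igfbp7: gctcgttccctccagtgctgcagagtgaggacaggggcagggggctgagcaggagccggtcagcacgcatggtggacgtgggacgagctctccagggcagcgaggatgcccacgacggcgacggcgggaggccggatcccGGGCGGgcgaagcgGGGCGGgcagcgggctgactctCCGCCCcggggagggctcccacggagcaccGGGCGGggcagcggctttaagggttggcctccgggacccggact
The window of *Igfbp4* (chr11:99040994-99041243, plus strand) was 69.2% G and C and held a TATA box, TATAAA, starting 28 bases before the start. The window of *Igfbp6* (chr15:102143936-102144185, plus strand) was 49.6% G and C and held CCAAT at 107 and 50 bases before the start and the reverse complement of TATAAA at 148 bases. Unlike the windows of *Igfbp4* and *Igfbp7*, which lie next to the genes as counted, it ends well before the gene start used for the counts (102144362). The bases between are not shown, so its positions are not fully comparable with those of the other windows. The window of *Igfbp7* (chr5:77408046-77408295, minus strand) was 74.0% G and C and held the GC box GGGCGG at 110, 96 and 44 bases before the start and its reverse complement at 74 bases. The median over all 32851 RefSeq promoters of this length was 52.4% G and C. The motifs searched on both strands were TATAAA, present in 12.4% of all promoters, CCAAT in 33.8%, GGGCGG in 32.7%, the cyclic AMP response element TGACGTCA in 1.55%, the glucocorticoid receptor palindrome (AGAACA and TGTTCT with 3 bases between) in 0.00913%, the C/EBP palindrome (ATTGC followed by GCAAT) in 0.00609% and the direct repeat bound by PPARγ with RXRα (AGGTCA, 1 base and AGGTCA) in 0.0335%. None of the last 4 was found in these 3 windows, which says only that these letters are not there.

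To ask how the IGF system changes as the cells differentiate, each day was compared with the others over both genotypes and both clones. All 5 tested genes changed between day 0 and day 2 and between day 0 and day 6 (edgeR quasi-likelihood test, Benjamini-Hochberg adjusted p under 0.05), 2 rising and 3 falling each time. *Igf1* and *Igfbp4* rose, and *Igf1r*, *Igfbp6* and *Igfbp7* fell. Change over time was common in these cells. Of all tested genes, 73.3% were called between days 0 and 2 (35.8% higher and 37.5% lower), 68.3% between days 0 and 6 (32.9% higher and 35.4% lower) and 62.0% between days 2 and 6 (31.9% higher and 30.1% lower), so the count of members called is no result about them. Their sizes are given beside those of all genes. The median log2 fold change over the 5 genes was -0.90 at day 2 and -0.89 at day 6 against day 0, beside -0.02 and -0.03 over all tested genes, whose median absolute log2 fold changes were 0.62 and 0.49. With 2 genes rising and 3 falling, these medians are the values of *Igf1r* at day 2 and *Igfbp7* at day 6. They give no common direction for the 5 genes. Between days 2 and 6, 3 of the 5 rose, 1 fell and 1 was not called, with a median of 0.68 beside 0.01 over all genes, whose median absolute change was 0.43.

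**Figure D1:**
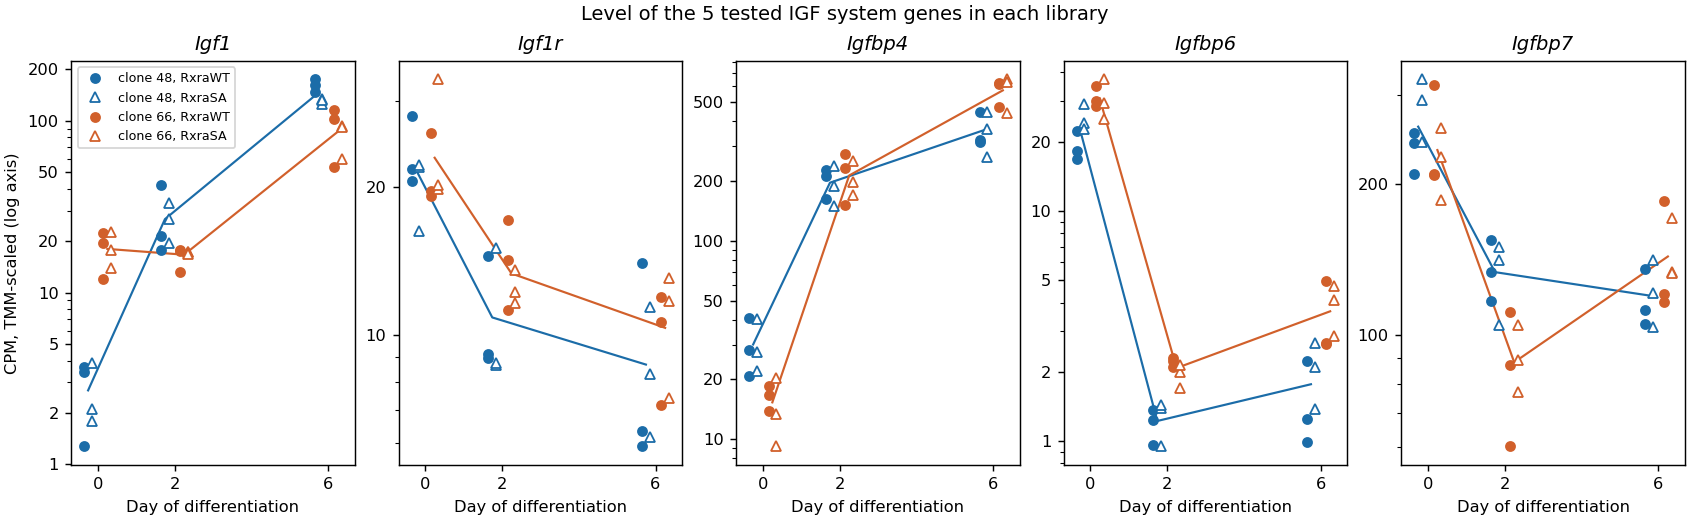
Level of the 5 tested genes in each of the 36 libraries, as TMM-scaled CPM on a log axis against the day of differentiation (0, 2, 6), with filled circles for RxraWT, open triangles for RxraSA, blue for clone 48 and orange for clone 66, and lines through the mean of the 6 libraries of a clone. *Igf1* and *Igfbp4* end high, *Igf1r*, *Igfbp6* and *Igfbp7* end below day 0, and the clones stand farthest apart in *Igf1* at day 0.

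The ligand *Igf1* was the member in which the clones parted most. In clone 48 its lowest, median and highest levels at day 0 were 1.27, 2.78 and 3.89 CPM, from 21 to 76 counts a library. They were 17.8, 23.9 and 42.3 CPM at day 2 and 125, 141 and 174 CPM at day 6. Every step in clone 48 was upward without overlap between days. In clone 66 the levels were 12.04, 18.6 and 22.5 CPM at day 0, 13.2, 17.3 and 17.6 CPM at day 2 and 54.1, 92.8 and 116 CPM at day 6. Days 0 and 2 overlapped in clone 66, and day 6 lay above both. Over both clones *Igf1* rose 11.9-fold by day 6, a log2 fold change of 3.57 ± 0.40 (SE; edgeR adjusted p = 9.84e-10), and 5.35-fold from day 2 to day 6 (2.42 ± 0.36; edgeR adjusted p = 5.06e-07). The change by day 2, 2.23-fold (1.15 ± 0.38; edgeR adjusted p = 0.00749), was seen in clone 48 and was not called in clone 66. In this fit over both clones, the call by day 2 was lost without replicate 1 of clone 48 (0.72; edgeR adjusted p = 0.0900) or without its replicate 3 (0.88; edgeR adjusted p = 0.0615). The fit takes the same difference between clones on every day, which *Igf1* did not keep. Its values for *Igf1* are therefore not the mean of the changes within each clone, which are given further below.

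The receptor *Igf1r* fell. In clone 48 its lowest, median and highest levels were 16.3, 21.9 and 28.0 CPM at day 0, 8.67, 9.05 and 15.0 CPM at day 2 and 5.91, 7.32 and 14.0 CPM at day 6. In clone 66 they were 19.2, 20.1 and 33.3 CPM, then 11.3, 12.9 and 17.2 CPM, then 7.17, 11.2 and 13.1 CPM. Day 0 lay above day 2 in each clone and above day 6 in all libraries, while days 2 and 6 overlapped. *Igf1r* was 1.86-fold lower at day 2 (log2 fold change -0.90 ± 0.15; edgeR adjusted p = 1.36e-06) and 2.37-fold lower at day 6 than at day 0 (-1.24 ± 0.15; edgeR adjusted p = 3.19e-09). The further step from day 2 to day 6 was small over both clones, -0.35 ± 0.15 with edgeR adjusted p = 0.0402, and was called in neither clone alone. The call over both clones was lost without replicate 1 or 2 of clone 48 or any one replicate of clone 66 (edgeR adjusted p up to 0.0978). At day 6 replicate 1 had the lowest and replicate 3 the highest *Igf1r* in all 4 cell lines.

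Among the carriers, *Igfbp4* rose most. It encodes the binding protein that mainly holds IGFs away from the receptor until the protease pappalysin cuts it. In clone 48 its lowest, median and highest levels were 20.8, 27.9 and 41.0 CPM at day 0, 149.8, 200.0 and 239 CPM at day 2 and 265, 344 and 449 CPM at day 6. In clone 66 they were 9.19, 15.2 and 20.4 CPM, then 152, 216 and 274 CPM, then 441, 621 and 651 CPM. The 3 days did not overlap in either clone. *Igfbp4* was 9.11-fold higher at day 2 (log2 fold change 3.19 ± 0.21; edgeR adjusted p = 1.53e-15) and 20.8-fold higher at day 6 than at day 0 (4.38 ± 0.22; edgeR adjusted p = 1.23e-18), and 2.29-fold higher at day 6 than at day 2 (1.19 ± 0.19; edgeR adjusted p = 2.14e-06). Replicate 1 had the lowest *Igfbp4* of its cell line at days 2 and 6 in all 4 lines.

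*Igfbp6*, the carrier that prefers IGF2 over IGF1, moved the other way. In clone 48 its lowest, median and highest levels were 16.9, 22.4 and 29.1 CPM at day 0, 0.949, 1.30 and 1.43 CPM at day 2 and 0.990, 1.73 and 2.67 CPM at day 6. In clone 66 they were 25.0, 29.7 and 37.3 CPM, then 1.69, 2.12 and 2.30 CPM, then 2.64, 3.49 and 4.97 CPM. Every library of day 0 was far above every later one, with 279 to 864 counts against 14 to 41 at day 2 and 17 to 98 at day 6. *Igfbp6* was 16.3-fold lower at day 2 (log2 fold change -4.03 ± 0.15; edgeR adjusted p = 1.09e-22) and 10.2-fold lower at day 6 than at day 0 (-3.35 ± 0.14; edgeR adjusted p = 4.69e-21). Between days 2 and 6 it rose 1.61-fold (0.68 ± 0.15; edgeR adjusted p = 0.00014), on low counts. That step was called in clone 66 (0.82 ± 0.19; edgeR adjusted p = 0.000609) and not in clone 48 (0.51 ± 0.21; edgeR adjusted p = 0.0506).

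*Igfbp7* encodes a secreted relative of the family that binds IGFs weakly and also binds insulin. Over both clones it had the highest mean level per length of the 8 genes on each day. In clone 66 alone *Igfbp4* was higher at day 6 (293 and 262 TPM on average), with overlapping ranges. In clone 48 its lowest, median and highest levels were 208, 247 and 322 CPM at day 0, 105, 137 and 154 CPM at day 2 and 104, 117 and 141 CPM at day 6. In clone 66 they were 185, 217 and 314 CPM, then 60.1, 88.3 and 111 CPM, then 116, 133 and 185 CPM. Day 0 lay above days 2 and 6 in all libraries, and only clone 66 had day 6 wholly above day 2. *Igfbp7* was 2.24-fold lower at day 2 (log2 fold change -1.16 ± 0.13; edgeR adjusted p = 4.47e-10) and 1.86-fold lower at day 6 than at day 0 (-0.89 ± 0.13; edgeR adjusted p = 1.28e-07). From day 2 to day 6 it changed by 0.27 ± 0.13 and was not called (edgeR adjusted p = 0.0613). With the replicate number as a block the same 0.27 was called (edgeR adjusted p = 0.0195), and without replicate 2 or 3 of clone 48 the change was 0.41 or 0.37 and was called.

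Taking both clones together, 3 of the 5 genes did not overlap between days 0 and 2 (*Igfbp4*, *Igfbp6* and *Igfbp7*), all 5 between days 0 and 6 and 1 between days 2 and 6 (*Igf1*). Of all tested genes, 27.7%, 23.2% and 17.1% did not overlap in these 3 comparisons of 12 libraries with 12.

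The remaining carriers had almost no reads. *Igfbp2* and *Igfbp3*, carriers common in serum, and *Igfbp5*, a carrier found in many connective tissues, had 5, 9 and 12 counts in all 36 libraries together, with at most 1, 3 and 3 in any library, and were at 0 in 31, 31 and 27 libraries. A count of 3 stood for 0.115 to 0.243 CPM in these libraries, the level that 0 counts still allows, so no fold is given for them. By day, *Igfbp2* had 1, 3 and 1 counts, *Igfbp3* had 7, 2 and 0, and *Igfbp5* had 0, 2 and 10. *Igfbp1*, the last gene of the family, had 0 counts in all 36 libraries.

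Levels of different genes can be set side by side only per length. In TPM, the order at day 0 was *Igfbp7* (593 ± 82.0, SD, n = 12), *Igfbp6* (69.8 ± 16.2), *Igfbp4* (14.9 ± 6.41), *Igf1r* (3.95 ± 0.967) and *Igf1* (3.11 ± 2.61), and among neighbours in this order only the last pair overlapped. At day 2 it was *Igfbp7* (216 ± 51.1), *Igfbp4* (110.4 ± 21.7), *Igf1* (5.25 ± 2.16), *Igfbp6* (3.54 ± 1.06) and *Igf1r* (1.74 ± 0.502), and *Igfbp4* was apart from the 3 genes below it. Neighbours within those 3 overlapped, as did *Igfbp7* and *Igfbp4*. At day 6 it was *Igfbp7* (247 ± 32.3), *Igfbp4* (243 ± 74.0), *Igf1* (27.1 ± 9.34), *Igfbp6* (5.48 ± 2.37) and *Igf1r* (1.31 ± 0.444), where only the 2 highest overlapped among neighbours. The place of *Igf1* at day 0 rests on clone 48, where the mean TPM of *Igf1* and *Igf1r* was 0.800 and 3.79, while in clone 66 it was 5.42 and 4.10 and the ranges of the pair overlapped. Among all genes ranked by mean TPM, *Igfbp7* was at 144, 618 and 441 on days 0, 2 and 6, *Igfbp4* at 7493, 1320 and 449, *Igfbp6* at 2147, 10739 and 9803, and *Igf1* at 12194, 9646 and 4458.

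The make-up of the carrier transcripts changed with the days. On days 0, 2 and 6 the summed TPM of *Igfbp1* to *Igfbp7* averaged 678 ± 83.0 (SD, n = 12), 330.4 ± 42.8 and 495 ± 77.3. The sum followed *Igfbp7*, which averaged 593, 216 and 247 TPM. *Igfbp6* fell as well (69.8, 3.54 and 5.48 TPM), while *Igfbp4* rose (14.9, 110.4 and 243 TPM). In CPM, without length, *Igfbp4* averaged 22.7, 205 and 467 and *Igfbp7* 246, 111 and 132. The lower sum in TPM is therefore not read as less carrier RNA. *Igfbp7* made up 87.4% ± 2.12, 64.8% ± 9.19 and 50.7% ± 8.64 of the summed TPM. *Igfbp4* went from 2.24% ± 1.04 to 34.1% ± 8.85 and 48.2% ± 8.79. *Igfbp6* went from 10.4% ± 2.56 to 1.12% ± 0.461 and 1.09% ± 0.396. At day 6 *Igfbp4* and *Igfbp7* thus had about equal shares per length, with the *Igfbp4* share from 33.5% to 58.6% over the 12 libraries. In CPM, without length, their shares that day were 76.7% and 22.9%. The near tie therefore rests on the lengths used, 4416 bases for *Igfbp4* and 1209 for *Igfbp7*. By clone, the *Igfbp4* share at day 2 was 28.6% ± 4.25 (SD, n = 6) in clone 48 and 39.5% ± 9.10 in clone 66, and the ranges of the clones overlapped. At day 0 it was 2.88% and 1.61%. These differences in share were not tested.

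**Figure D2:**
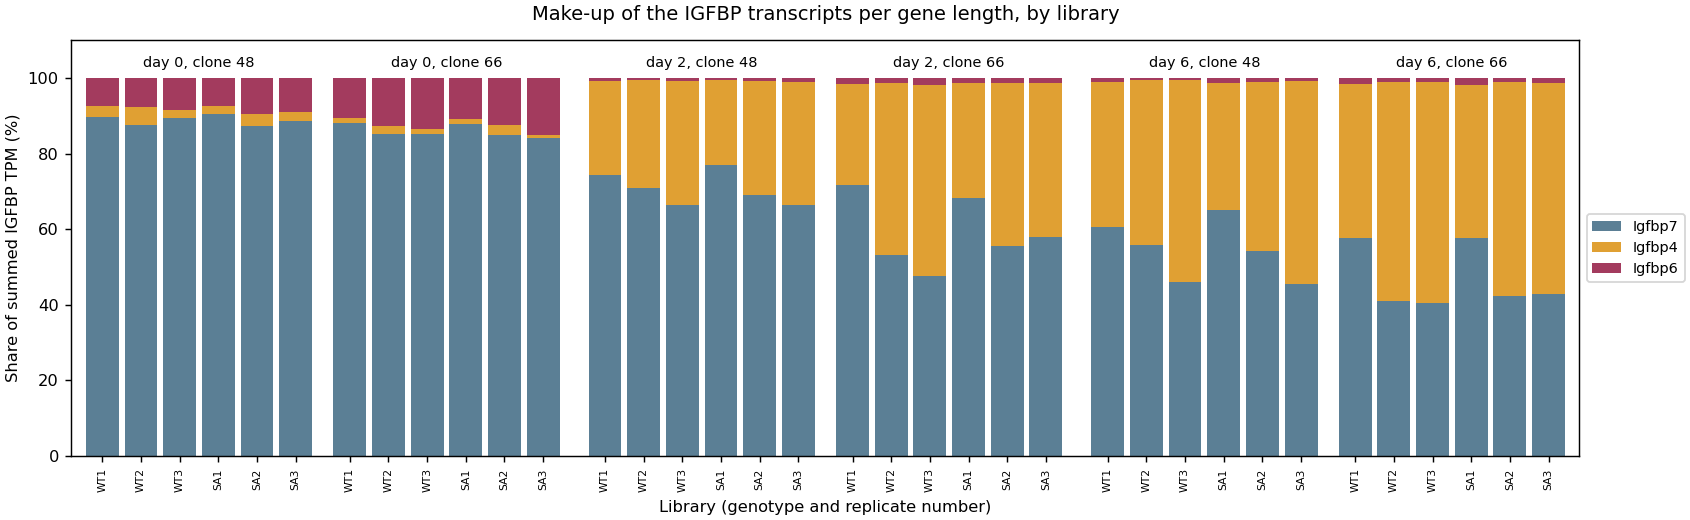
Share of *Igfbp7* (blue grey), *Igfbp4* (yellow) and *Igfbp6* (red) in the summed TPM of *Igfbp1* to *Igfbp7*, in percent, with 1 bar for each of the 36 libraries ordered by day, clone, genotype and replicate. *Igfbp6* holds 10.4% on average at day 0 and 1.09% at day 6, and *Igfbp4* grows from 2.24% to 48.2%.

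Because each genotype was made in both clones, the change over time could be read in each clone and the difference between clones tested. Between days 0 and 2, 5 of 5 tested genes were called in clone 48 (background 65.3%) and 4 in clone 66 (61.6%). Between days 0 and 6 it was 5 in each (56.3% and 57.7%), and between days 2 and 6 it was 2 and 4 (51.1% and 50.5%). Libraries of 2 days within a clone did not overlap for 44.3%, 38.3% and 31.3% of all genes in clone 48, for days 0 and 2, 0 and 6, and 2 and 6, and for 44.7%, 38.5% and 35.0% in clone 66. The fitted change went the same way in both clones for all 5 genes between days 0 and 6, and for 4 of the 5 between days 0 and 2, *Igf1* being the exception.

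Between the clones themselves, 3 of the 5 genes were called at day 0 (2 higher in clone 66 and 1 lower), where 23.7% of all tested genes were called (12.6% higher and 11.1% lower). At day 2 it was 3 (1 higher and 2 lower; 30.0% of all genes, 14.5% higher and 15.5% lower) and at day 6 it was 3 (2 higher and 1 lower; 26.2% of all genes, 13.4% higher and 12.8% lower). Libraries of the clones did not overlap for 13.7%, 18.6% and 15.2% of all genes on these days. Differences between the clones in the change over time were rarer among all genes. They were called for 6.84% from day 0 to day 2 (3.61% higher in clone 66 and 3.23% lower), 3.85% from day 0 to day 6 (2.10% and 1.75%) and 6.18% from day 2 to day 6 (3.15% and 3.03%), and for 2, 2 and 1 of the 5 genes, in order. These were *Igf1* and *Igfbp4* in the first pair of comparisons and *Igfbp7* in the last.

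*Igf1* by day 2 rose 9.79-fold in clone 48 (log2 fold change 3.29 ± 0.26; edgeR adjusted p = 5.35e-12) and changed by -0.11 ± 0.23 in clone 66 (edgeR adjusted p = 0.689). The difference between clones in that change was -3.41 ± 0.35 (edgeR adjusted p = 7.59e-08). By day 6 *Igf1* had risen 53.0-fold in clone 48 (5.73 ± 0.28) and 4.80-fold in clone 66 (2.26 ± 0.24), a difference of -3.47 ± 0.34 (edgeR adjusted p = 1.02e-07). From day 2 to day 6 the changes were 2.44 and 2.38, with a difference of -0.06. Most of the gap lay in the starting level: at day 0 *Igf1* was 2.72 ± 0.26 log2 units higher in clone 66 (edgeR adjusted p = 2.36e-09), at day 2 the difference was -0.69 ± 0.23 (edgeR adjusted p = 0.0237) and at day 6 it was -0.75 ± 0.23 (edgeR adjusted p = 0.0131). The libraries of the clones did not overlap on any of the 3 days. The day 2 difference was not called without replicate 1 of clone 48 (-0.35; edgeR adjusted p = 0.302), or without replicate 2 or 3 of clone 66 (edgeR adjusted p up to 0.113), nor the day 6 difference without replicate 1 of clone 66 (edgeR adjusted p = 0.104).

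*Igfbp4* rose more in clone 66. The log2 fold changes by day 2 were 2.71 ± 0.21 in clone 48 and 3.80 ± 0.22 in clone 66, with a difference of 1.09 ± 0.28 (edgeR adjusted p = 0.0148). By day 6 they were 3.59 ± 0.22 and 5.23 ± 0.24 (37.5-fold), with a difference of 1.64 ± 0.28 (edgeR adjusted p = 0.000498). Clone 66 started lower, by -0.97 ± 0.20 at day 0 without overlap (edgeR adjusted p = 0.000631), and ended higher, by 0.67 ± 0.20 at day 6 (edgeR adjusted p = 0.012). The difference by day 2 was not called without replicate 1 or 2 of clone 48 or replicate 3 of clone 66 (differences of 0.91 to 1.00; edgeR adjusted p up to 0.138), nor was the day 6 level without replicate 1 of clone 48 (edgeR adjusted p = 0.106) or replicate 2 or 3 of clone 66 (edgeR adjusted p = 0.0647 and 0.0591).

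*Igfbp7* differed between clones after day 2. From day 2 to day 6 it changed by -0.15 ± 0.15 in clone 48 (edgeR adjusted p = 0.415) and rose by 0.70 ± 0.15 in clone 66 (edgeR adjusted p = 0.000276), with a difference of 0.85 ± 0.21 (edgeR adjusted p = 0.0117). Without replicate 2 of clone 48 that difference was 0.73 (edgeR adjusted p = 0.159). At day 2 itself *Igfbp7* was lower in clone 66, by -0.60 ± 0.15 (edgeR adjusted p = 0.003; 0.0540 without replicate 2 of clone 48). *Igfbp6* was higher in clone 66 at all 3 days, by 0.49 ± 0.17 (edgeR adjusted p = 0.0322), 0.75 ± 0.21 (0.00669, without overlap) and 1.07 ± 0.19 (0.000106), and its change over time was not shown to differ between clones (for days 0 to 6, 0.58, edgeR adjusted p = 0.272). The day 0 difference of *Igfbp6* was not called without the RxraSA library of clone 48, replicate 1, which had the lowest total count (0.47; edgeR adjusted p = 0.0640), nor without any one replicate of clone 48, or without replicate 1 or 3 of clone 66 (edgeR adjusted p up to 0.154). *Igf1r* differed between clones by 0.08, 0.29 and 0.25 on days 0, 2 and 6 and was not called. It was called at days 2 and 6 without replicate 3 of clone 48 (0.60, edgeR adjusted p = 0.0240, and 0.63, edgeR adjusted p = 0.0196). 

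**Figure D3:**
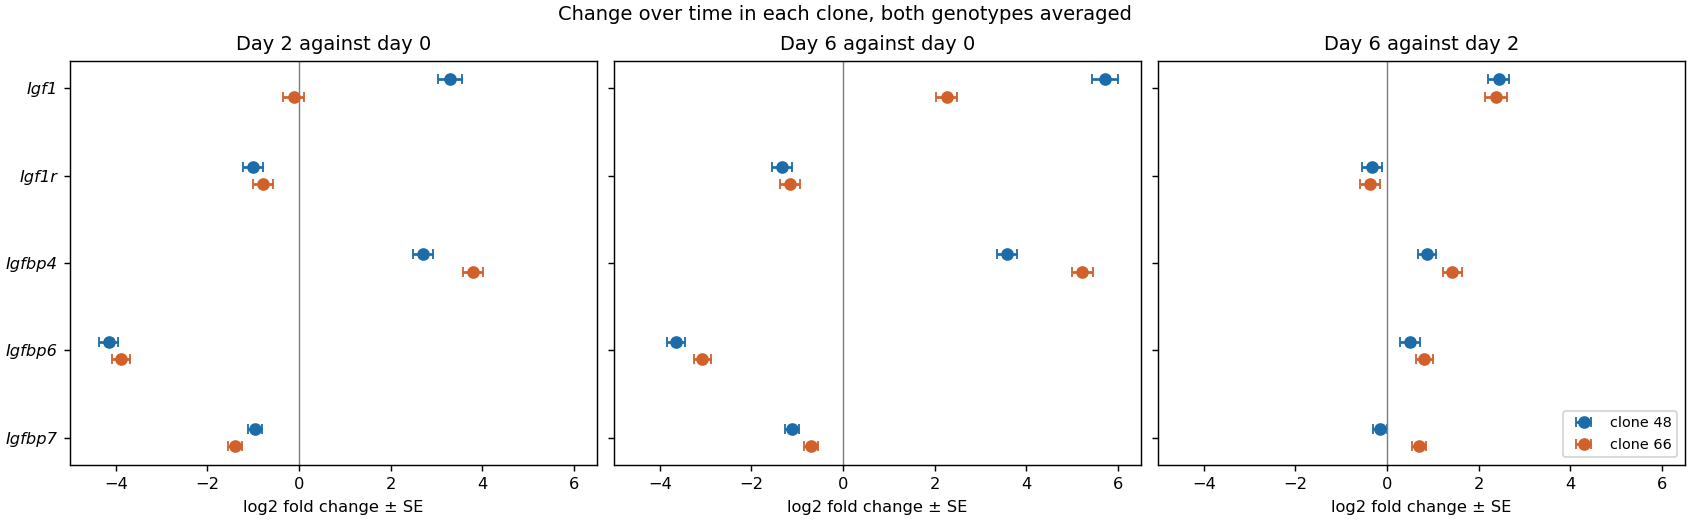
Log2 fold change ± SE between days in clone 48 (blue) and clone 66 (orange), averaged over both genotypes, for the 5 tested genes in 3 panels, with a line at 0. The points of *Igf1* stand apart by day 2 (3.29 and -0.11) and by day 6 (5.73 and 2.26) and lie together from day 2 to day 6, while those of *Igf1r* lie close in every panel.

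The study's own question was whether removing the phosphorylated serine of RXRα changes gene expression during differentiation. None of the 5 tested genes was called between RxraSA and RxraWT cells on any day (edgeR adjusted p = 1 for each). In this comparison 0% of all tested genes were called by edgeR on any of the 3 days, and 139, 162 and 125 of 16723 had an unadjusted p under 0.05. DESeq2 called 0 as well, with 116, 130 and 101 genes at an unadjusted p under 0.05, as did the newer form of the edgeR test, with 156, 179 and 138. With the replicate number as a block within each day, 704, 692 and 477 genes had an unadjusted p under 0.05 and 0, 1 and 0 were called, the 1 being no member. A p that misses the threshold does not show equal levels. The errors given next come from the fit without pairing, and those of the block within each day were smaller, as at day 6, where *Igf1* was -0.20 ± 0.10 and *Igfbp6* 0.30 ± 0.17 (edgeR adjusted p = 1 for both).

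For *Igf1* the log2 fold changes of RxraSA against RxraWT on days 0, 2 and 6 were 0.01 ± 0.51, 0.01 ± 0.50 and -0.25 ± 0.48. These are the widest errors of the 5 genes, and they depend on the fit. At day 0 the error was 0.25 with clone-specific groups and 0.13 with the replicate block within each day. At day 6 the lowest, median and highest levels were 54.1, 132 and 174 CPM in RxraWT and 59.9, 109 and 135 CPM in RxraSA cells. In clone 48 alone the RxraWT libraries had 174, 161 and 147 CPM and the RxraSA libraries 125, 135 and 132 CPM, which do not overlap, a pattern found in 4.95% of all genes in that clone on that day. In clone 66 the values were 54.1, 116 and 102 CPM against 59.9, 93.5 and 92.0 CPM and overlapped, and the effect of genotype was not shown to differ between clones (0.15 ± 0.45).

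*Igfbp6* had the difference farthest from 0, at day 6 (0.30 ± 0.20; edgeR adjusted p = 1). Its levels there were 0.990, 2.44 and 4.97 CPM (lowest, median and highest) in RxraWT and 1.37, 2.77 and 4.73 CPM in RxraSA cells, and RxraSA was higher in 5 of 6 pairs of clone and replicate, beside 1 of 6 for *Igf1*, 5 for *Igf1r* and 4 each for *Igfbp4* and *Igfbp7* on that day. At day 0 its difference was 0.20 ± 0.17, and the RxraSA libraries of clone 48 lay above the RxraWT ones without overlap, a separation that 8.12% of all genes showed there in 1 direction or the other. At day 2 it was -0.07 ± 0.22. The other genes stayed closer to 0: *Igf1r* at -0.03 ± 0.20, -0.10 ± 0.21 and 0.05 ± 0.21 on days 0, 2 and 6, *Igfbp4* at -0.06 ± 0.28, -0.07 ± 0.27 and 0.00 ± 0.27, and *Igfbp7* at 0.08 ± 0.18, 0.01 ± 0.18 and 0.05 ± 0.18. No direction can be read for *Igf1* at days 0 and 2 or for *Igfbp4* at day 6, where the sign turns with the scaling or design.

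**Figure D4:**
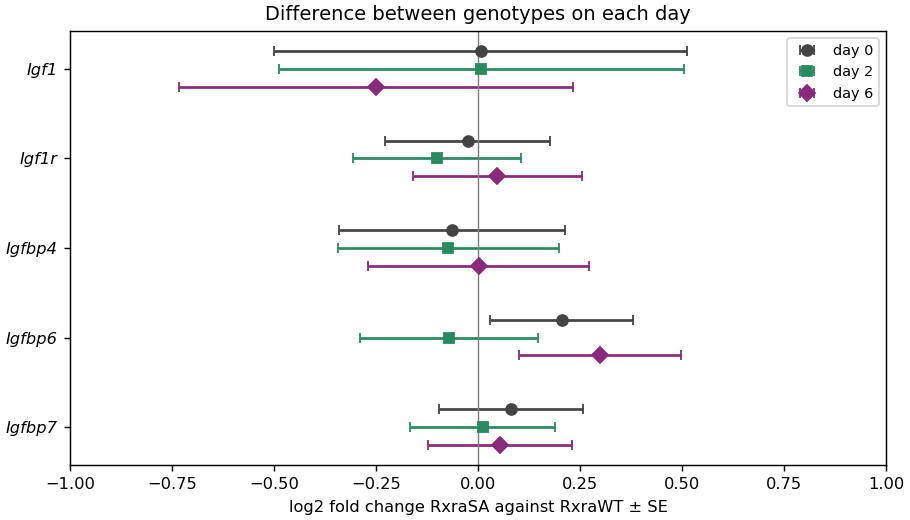
Log2 fold change of RxraSA against RxraWT cells ± SE for the 5 tested genes at day 0 (black circles), day 2 (green squares) and day 6 (purple diamonds), with a line at 0. The points lie between -0.25 (*Igf1*, day 6) and 0.30 (*Igfbp6*, day 6), and none was called.

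The 6 levels of each gene by genotype and day followed the days and not the genotypes. Median *Igfbp4* in RxraSA and RxraWT cells was 21.2 and 19.6 CPM at day 0, 193 and 219 CPM at day 2, and 445 and 462 CPM at day 6. The genotypes of a day overlapped in every tested gene, so no order between them can be read. For *Igf1* the means were 10.3 ± 8.92 CPM (SD, n = 6) in both genotypes at day 0, 21.8 ± 6.69 and 21.6 ± 10.5 CPM in RxraSA and RxraWT at day 2, and 106 ± 29.5 and 126 ± 44.3 CPM at day 6. The change over time was not shown to differ by genotype for any of the 5 genes, 0 of which were called, nor was the genotype effect shown to differ by clone. In the former comparison edgeR called 0% of all genes (144, 128 and 153 at an unadjusted p under 0.05, for days 0 to 2, 0 to 6 and 2 to 6), and in the latter also 0% (283, 214 and 200 on days 0, 2 and 6). DESeq2 called 0 in each, with 125, 109 and 133 and with 253, 168 and 177 genes at an unadjusted p under 0.05. For the genotype effect by clone, edgeR with the replicate block called 3, 0 and 0 genes (1434, 299 and 469 at an unadjusted p under 0.05) and without the filter 5, 0 and 0, none of them a member.

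The genes whose log2 CPM over the 36 libraries was most like that of a member, among the 6352 genes whose mean log2 CPM reached 5, are named as a description. The libraries share days, clones and pools, so days alone give high correlations. For *Igf1* these included *Ankef1* (r = 0.913) and *Msra* (0.894). For *Igf1r* they included *Plec* (0.964) and *Kirrel* (0.937). For *Igfbp4* they were *Sort1* (0.985), *Trarg1* (0.984) and *Zbtb18* (0.977), of which *Sort1* and *Trarg1* encode proteins of the insulin-responsive glucose transporter vesicles of adipocytes. For *Igfbp6* they were *Slc25a24* (0.984), *Loxl3* (0.984) and *Nqo1* (0.981), and for *Igfbp7* *Asah1* (0.958), *Gulp1* (0.947) and *Rsu1* (0.937). Between members, *Igfbp4* and *Igfbp6* had r = -0.864 and *Igfbp6* and *Igfbp7* had r = 0.834.

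The rest of the IGF pathway was read from a list of 45 other genes, of which 36 were tested. Between days 0 and 2, 16 rose, 14 fell and 6 were not called, and between days 0 and 6, 18 rose, 11 fell and 7 were not called. From day 2 to day 6, 17 rose, 10 fell and 9 were not called. These counts stand beside the 73.3%, 68.3% and 62.0% of all genes called, and nothing about the list is read from them or from the counts by role given next. Their median log2 fold changes were 0.08, 0.19 and 0.12 for these 3 comparisons. None was called between genotypes on any day. Other ligands were close to absent, *Igf2*, *Ins1* and *Ins2* having at most 1 count in any library, so *Igf1* was the 1 ligand gene of the family with an appreciable level.

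The receptors moved apart. *Insr*, the insulin receptor, rose while *Igf1r* fell: its mean was 41.0, 111 and 139 CPM on days 0, 2 and 6, a log2 fold change of 1.43 ± 0.13 by day 2 (edgeR adjusted p = 3.5e-12) and 1.76 ± 0.13 by day 6. *Igf2r*, which takes up IGF2 for degradation, fell from 203 to 119 and 106 CPM, by -0.79 ± 0.22 (edgeR adjusted p = 0.0015) and -0.92 ± 0.22 (edgeR adjusted p = 0.00037). *Igfals*, which encodes the acid-labile subunit that joins IGF and carrier in a large serum complex, was at 0.946, 0.507 and 7.88 CPM, changing by -0.92 ± 0.24 and then 3.06 ± 0.19 against day 0. *Insrr*, a receptor related to both, and *Igfbpl1*, a relative of the carriers, had at most 1 count in any library and were not tested.

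Of the proteases that cut the carriers and their inhibitors, 5 of 6 were tested, and between days 0 and 2, 1 rose and 4 fell. *Pappa*, the protease of IGFBP4, was at 4.69, 1.93 and 4.12 CPM on days 0, 2 and 6, falling by day 2 (-1.45) and not called at day 6 (-0.29; edgeR adjusted p = 0.23). *Pappa2* fell from 7.24 to 2.42 and 0.639 CPM (-1.49 and -3.36), with 0.115 to 17.4 CPM in single libraries at day 0. *Htra1*, a secreted serine protease, dropped from 29.0 to 1.99 CPM and was back at 21.7 CPM by day 6 (-4.00 and -0.45). *Adam12* rose from 25.9 to 191 and 87.7 CPM (2.94 and 1.88). *Stc1*, a pappalysin inhibitor, had a mean of 5.34 CPM before differentiation, with 0.305 to 12.1 CPM in single libraries. Its mean was 0.0365 CPM (0 to 4 counts a library) at day 2 and 2.71 CPM at day 6. Its relative *Stc2*, with at most 2 counts in any library, was the one not tested. By day 6, 1 of the 5 had risen, 3 had fallen and 1 was not called.

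Downstream, 3 of 7 tested adaptor genes rose, 1 fell and 3 were not called by day 2, and 5 rose and 0 fell by day 6. *Irs2*, which carries the signal of the insulin and IGF receptors, rose by 2.98 by day 2 and 1.32 by day 6. Of 15 kinases and effectors, 9 rose and 4 fell by day 2, and 7 rose and 5 fell by day 6. All 3 genes of the *Igf2* mRNA-binding proteins fell by day 2, and 2 of them were lower at day 6. Of the growth hormone axis, which drives *Igf1* transcription in liver and fat, 2 of 3 genes rose by day 2 and 3 by day 6, among them the receptor *Ghr*, whose mean went from 172 to 398 and 399.6 CPM (1.25 and 1.16).

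**Figure D5:**
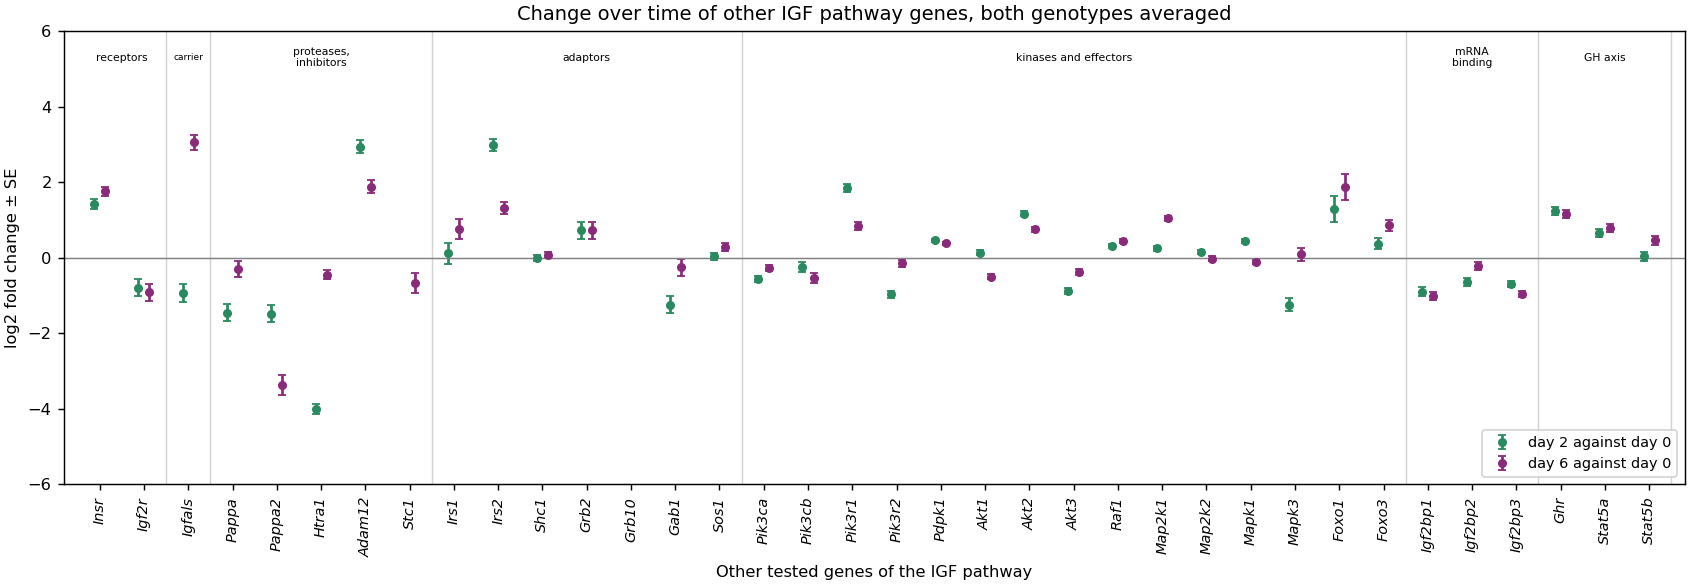
Log2 fold change ± SE at day 2 (green) and day 6 (purple) against day 0 for the 36 other tested IGF pathway genes, grouped by role, averaged over both genotypes. *Insr* lies above 0 and *Igf2r* below it on both days, and no point is drawn for *Stc1* at day 2 or for *Grb10*, where a day had fewer than 3 counts on average.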

How the data were processed

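RNA was sequenced as paired-end reads from 36 libraries. The authors deposited counts of read pairs per gene, 1 file per library, as whole numbers that were not normalised. The submitters' processing notes name STAR 2.7.0d and featureCounts 1.6.2, on GRCm38 with GENCODE M21 genes, and edgeR 3.24.3. The counting command in the file headers kept properly paired fragments and set no strand, although the library kit keeps it.

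From these counts, edgeR 4.0.16 (R 4.3.3) gave TMM-scaled CPM and quasi-likelihood tests over all 36 libraries, with genotype and day as groups and clone as covariate, as in the study's methods. Comparisons of clones used a coefficient for each clone, genotype and day. Genes passed filterByExpr at default settings, and Benjamini-Hochberg adjustment ran over all 16723 tested genes, with calls at 0.05. TPM used the length given in the files, which joins all annotated exons of a gene and need not be that of the expressed transcript. Shares were of summed IGFBP TPM. The same steps were run on simulated counts with known changes between genotypes at day 2. Those counts were drawn independently for each library, whereas real libraries of equal replicate number moved together. The simulation did not cover the comparisons of days or clones, and its outcome is not used here.

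All 8 members are named, and the 5 that passed the filter in each comparison. From the list of 45 pathway genes, ligands, receptors, carriers, proteases and their inhibitors are named; *Irs2* and *Ghr* were named after their values were seen. The 3 genes most like a member were taken by Pearson correlation. For some members not all of them are reported here. Members and lists were chosen with earlier results of these data known.

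Equal replicate numbers across groups marked libraries that moved together: in 18 pairs of genotypes, deviations from the group means over 9381 genes correlated at 0.176 to 0.930 (mean 0.71), so a fit with the replicate number as a block was run as an alternative. Other alternatives were DESeq2 1.42.0, another normalisation, no filter and leaving out each replicate. Promoter sequences came from RefSeq and were found for 8 of 8 members. That of *Igf1* lies in an exon of the annotation used here and is not printed.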

Additional observations from a re-analysis of the deposited data

Results flagged for a closer look

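In 30 groups of 6 libraries, 1 for each tested gene, genotype and day, the highest or lowest library was set against the others by Dixon's test. It stood apart in 2 groups, and chance alone gives about 1 in 20 for groups drawn alike, which strictly does not apply here, since each group holds both clones. *Igf1* in RxraWT cells at day 2 was 42.3 CPM in replicate 1 of clone 48, where the other 5 libraries had 13.2 to 21.3 CPM, and the clones did not overlap on that day. The RxraSA library of clone 48, replicate 1, was also the highest of its group, at 33.2 CPM. *Igf1r* in RxraSA cells at day 0 was 33.3 CPM in replicate 2 of clone 66, where the other 5 had 16.3 to 22.2 CPM.

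The change over time differed between the clones for 3 genes (edgeR, clone 66 minus clone 48, log2). For *Igf1* the difference was -3.41 from day 0 to day 2 and -3.47 from day 0 to day 6. For *Igfbp4* it was 1.09 and 1.64 for the same steps. For *Igfbp7* it was 0.85 from day 2 to day 6. Clone and library pool cannot be told apart in each of these.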

How the results depend on the processing

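Of the comparisons between days, 191 alternative values kept direction and call, 8 became called, 11 lost the call and 0 turned. Scaling by library size alone shifted the median log2 change of all genes by -0.26 (day 2) and -0.19 (day 6) against day 0, and the directions of the 5 genes held in both. From day 2 to day 6, *Igf1r* lost its call under DESeq2's size factors (-0.33), library size alone (-0.28), no filter and clone-specific groups, and *Igfbp7* gained one under each of these and DESeq2 (0.27 to 0.34). No comparison by genotype of the 5 genes was called under any alternative. Differences between genotypes near 0 changed sign: *Igf1* at day 0 under library size alone (-0.0015), DESeq2 (-0.0077) and clone-specific groups (-0.045), *Igf1* at day 2 with no filter (-0.0046) and *Igfbp4* at day 6 with clone-specific groups (-0.00086). The causes were not tested.

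With 1 replicate left out in turn, or the RxraSA library of clone 48, replicate 1, at day 0 alone, differences between genotypes also changed sign. They ran from -0.17 to 0.20 (*Igf1*) and -0.22 to 0.13 (*Igf1r*) at day 0, from -0.059 to 0.17 (*Igf1*), -0.16 to 0.00027 (*Igfbp6*) and -0.031 to 0.046 (*Igfbp7*) at day 2, and from -0.0033 to 0.17 (*Igf1r*) and -0.027 to 0.027 (*Igfbp4*) at day 6. Between clones, *Igf1r* at day 0 ran from -0.049 to 0.17 and *Igfbp4* at day 2 from -0.055 to 0.29. Differences in time course ran from -0.024 to 0.56 (*Igf1r*, days 0 to 6), -0.12 to 0.054 (*Igf1r*, days 2 to 6) and -0.38 to 0.20 (*Igf1*, days 2 to 6). The number of the 5 genes whose time course differed between clones was 1 to 2 for days 0 to 2 and 0 to 1 for days 2 to 6.

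With the replicate number as a block, *Igfbp7* was also called between clones at day 6 (0.25), and its time course differed between clones for days 0 to 2 (-0.44) and 0 to 6 (0.41). *Igfbp4* at day 6 turned to -0.013 between genotypes, also with the block within each day (-0.0125), where *Igf1* at day 0 was -0.00056. Those stayed uncalled, and the block changed no other call of the 5 genes beside the one given for *Igfbp7*.

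In CPM, without gene length, the shares of the carriers on days 0, 2 and 6 were 7.71%, 64.4% and 76.7% for *Igfbp4* and 83.1%, 35.0% and 22.9% for *Igfbp7*, and 0.534% and 0.450% for *Igfbp6* on days 2 and 6. Low counts limit *Igfbp6* after day 0 and *Igf1* in clone 48 at day 0, and *Igfbp2*, *Igfbp3* and *Igfbp5* did not pass the filter on low counts. Without it, *Igfbp5* was called from day 0 to day 6 (2.94; edgeR adjusted p = 0.00286) on 0 and 10 counts in all, and *Igfbp3* (-2.23; edgeR adjusted p = 0.0423) on 7 and 0, fitted changes that are no bound.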
